A study of Homo sapiens with 12 samples.

Results

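The genes described here are 36 genes of protein folding in the endoplasmic reticulum (ER) and of the unfolded protein response. They are the genes of a fixed list of ER stress sensors, chaperones, folding enzymes and degradation factors, matched by gene name to the deposited gene count table. All 36 were found among its 58051 genes, and 35 of them were among the 17774 genes with enough reads for a test. DERL3, which encodes a degradation channel protein, had 0 to 4 counts per library and was not tested. The cells were NB-1, an established human neuroblastoma line known for extra copies of MYCN and ALK. They were kept for 48 h with DMSO (the solvent, 0 µM of either drug), with 0.5 µM BEZ-235, with 0.5 µM SAHA, or with 0.5 µM of each drug together, called the combination below. BEZ-235 inhibits PI3K and mTOR kinases, and SAHA (vorinostat) inhibits histone deacetylases. Each of the 4 groups has 3 biological replicates, so all values come from 12 libraries of polyadenylated RNA from a single cell line.

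Proteins that are secreted or inserted into membranes enter the ER through the SEC61 channel and fold there with the help of chaperones. HSPA5 (BiP), the HSP70 chaperone of the ER, binds unfolded chains, lectins such as calnexin and calreticulin hold glycoproteins, and protein disulfide isomerases form and exchange disulfide bonds. When unfolded protein accumulates, the sensors IRE1 (gene ERN1), PERK (EIF2AK3) and ATF6 start the unfolded protein response. IRE1 splices the XBP1 mRNA, ATF6 is cut to release a transcription factor, and both raise the genes of folding and of ER-associated degradation (ERAD), while PERK slows translation and raises the transcription factor ATF4. Splicing of XBP1, cleavage of ATF6 and phosphorylation of PERK are not seen in counts per gene, so the values below are mRNA levels only.

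The promoters of 33 of the 36 genes were found in the RefSeq table of windows from 250 bases before to 50 bases after a transcription start (build GRCh38.p14, 41 windows for these genes). The windows were searched on both strands for 4 motifs known from this response. The ER stress response element, CCAAT followed after 9 bases by CCACG, is the site through which ATF6 with the factor NF-Y raises chaperone genes. It was found in 8 of the 33 genes (24.2%), namely XBP1, HSPA5, HSP90B1, CRELD2, CALR, CANX, PDIA6 and ERO1B, and in 27 of all 35116 windows (0.0769%). Counted by gene, as for the 33, it was in 0.144% of the 11120 tested genes with a window. Its second form, ATTGG followed after 1 base by CCACG, was found in HYOU1, SDF2L1 and HERPUD1 (9.09%) and in 19 of all windows (0.0541%, or 0.126% of tested genes). The core bound by XBP1 and ATF6, TGACGTGG, was in HYOU1 and DNAJC10 (6.06% against 1.21% of tested genes and 0.729% of all windows). In HYOU1 this match overlaps the far copy of the second form. The amino acid response core bound by ATF4 and its partners, TGATGCAA or TGATGAAA, was in CREB3L2 and HERPUD1 (6.06% against 1.41% of tested genes and 1.96% of all windows). Sites of both forms of the ER stress response element are printed below, except those of CANX and PDIA6. They read 5′ to 3′ in the direction of the motif. Capitals mark the fixed letters, and positions count from the transcription start of the RefSeq window, with the first transcribed base as 1 and the base before it as -1. The sites of HSP90B1 and CRELD2 lie inside the gene spans of GENCODE 29, which hold transcripts that begin further upstream. So do those of CANX and PDIA6, and the other sites lie before the gene.
HSPA5 (chr9:125241391-125241409, minus strand, bases -66 to -48): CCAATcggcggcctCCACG
XBP1 (chr22:28800603-28800621, minus strand, bases -52 to -34): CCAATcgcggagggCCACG
HSP90B1 (chr12:103930216-103930234, plus strand, bases -194 to -176): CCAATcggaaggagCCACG
HSP90B1 (chr12:103930321-103930339, minus strand, bases -89 to -71): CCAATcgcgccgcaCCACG
CRELD2 (chr22:49918554-49918572, minus strand, bases -80 to -62): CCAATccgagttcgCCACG
CALR (chr19:12938384-12938402, minus strand, bases -225 to -207): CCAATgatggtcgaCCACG
ERO1B (chr1:236282183-236282201, plus strand, bases -243 to -225): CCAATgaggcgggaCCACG
SDF2L1 (chr22:21642114-21642124, minus strand, bases -188 to -178): ATTGGtCCACG
HERPUD1 (chr16:56932025-56932035, plus strand, bases -117 to -107): ATTGGgCCACG
HYOU1 (chr11:119057380-119057390, plus strand, bases -185 to -175): ATTGGaCCACG
HYOU1 (chr11:119057274-119057284, plus strand, bases -79 to -69): ATTGGaCCACG

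The upstream bases of HSPA5, SDF2L1 and HERPUD1 show where a match lies. They begin 250 bases before the RefSeq start and end there or, for SDF2L1 and HERPUD1, at the base before the gene's earlier start in GENCODE 29. HSPA5 is the central chaperone, SDF2L1 fell most with BEZ-235, and HERPUD1 holds the same second form of the element as SDF2L1 but did not fall in any group against DMSO. The sequences are those of the gene's own strand from RefSeq, with matches to any of the 4 motifs in capitals (a motif on the other strand appears as its reverse complement).
HSPA5 promoter (chr9:125241344-125241593, minus strand): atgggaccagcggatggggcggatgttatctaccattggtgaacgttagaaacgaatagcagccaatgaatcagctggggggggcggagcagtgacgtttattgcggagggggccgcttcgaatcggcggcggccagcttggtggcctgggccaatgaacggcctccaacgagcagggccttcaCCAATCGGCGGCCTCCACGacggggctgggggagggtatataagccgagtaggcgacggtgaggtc
SDF2L1 promoter (chr22:21642052-21642260, plus strand): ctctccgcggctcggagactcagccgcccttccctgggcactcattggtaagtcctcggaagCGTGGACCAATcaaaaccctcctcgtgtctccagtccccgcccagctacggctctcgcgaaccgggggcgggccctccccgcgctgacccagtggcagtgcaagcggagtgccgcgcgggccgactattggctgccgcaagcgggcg
HERPUD1 promoter (chr16:56931892-56932047, plus strand): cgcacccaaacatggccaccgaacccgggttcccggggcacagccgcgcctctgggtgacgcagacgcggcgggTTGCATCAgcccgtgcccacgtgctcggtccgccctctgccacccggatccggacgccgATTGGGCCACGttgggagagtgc
A match is a description of the letters and not evidence of binding, and genes without a match in this window may hold one elsewhere.

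Depth ran from 17662919 counts in the shallowest library to 79543476 in SAHA replicate 2 (median 20407924.5). The tested genes of the list had at least 16 counts in every library. A gene's level is its count scaled to the size of the library (CPM), and changes are log2 fold changes ± SE. A gene was called where the adjusted p was under 0.05 in edgeR's quasi-likelihood test with Benjamini-Hochberg adjustment over all 17774 tested genes. The 10 neuroblastoma markers were detected in all 12 libraries. MYCN, ALK, PHOX2A, HAND2, GATA3 and CHGA were at 111 CPM or more in each, while ISL1 stood at 10.2 to 35.3 CPM and DBH, the enzyme that makes noradrenaline, at 0.830 to 4.01 CPM. TH, the first enzyme of catecholamine synthesis, had a mean of 138 CPM with DMSO, 53.9 with BEZ-235, 38.6 with SAHA and 41.4 with the combination. SOX10 and IGKC, defining markers of Schwann cells and plasma cells, were at 0 in all 12 libraries. Log2 counts followed the GC content of transcripts differently in the combination: the slope per 10 percentage points of GC was 0.197 to 0.450 in its 3 libraries and -0.215 to 3.45e-04 in the other 9. The slope runs with the group, so library effects and drug effects on genes of different GC content cannot be told apart. For the 36 genes, changes of the combination against DMSO are therefore given beside the value after a correction of every library for GC content and length (the GC-corrected value). The transcripts of the 36 genes had a median GC content of 45.9%, against 48.5% over all tested genes.

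Per kilobase of its longest transcript, HSP90B1 (GRP94, the HSP90 chaperone of the ER) was the most abundant of these mRNAs with DMSO, at 329 CPM per kilobase. It was followed by CALR at 233, PPIB at 199, CANX at 169, P4HB at 157, HSPA5 at 150.2 and PDIA3 at 138 CPM per kilobase. The sensors were scarcer: ATF6 stood at 32.6, EIF2AK3 at 6.43 and ERN1 at 0.664 CPM per kilobase. ERO1B, at 0.222 CPM per kilobase, was the lowest tested gene. The 36 genes together took 6029, 6172 and 6055 CPM in the 3 DMSO libraries and 5757, 5877 and 6107 CPM with SAHA. They took 4402, 4308 and 4497 CPM with BEZ-235 and 4064, 3695 and 3708 CPM with the combination. Every library with BEZ-235, alone or combined, was thus below every library without it. The mean was 6086 ± 76.4 CPM with DMSO (SD, n = 3), 4402 ± 94.5 with BEZ-235, 5913 ± 178 with SAHA and 3822 ± 209 with the combination. The 11 HSP70 and HSP90 chaperones and partners made up most of the difference in CPM, falling from a summed 2286 ± 37.5 CPM with DMSO to 1403 ± 42.2 with BEZ-235 and 1066 ± 121 with the combination. The 7 tested ERAD genes and DERL3 summed to 392 ± 5.49 CPM with DMSO, 425 ± 10.3 with BEZ-235, 460.0 ± 7.52 with SAHA and 399.5 ± 6.44 with the combination. In RNA from whole cultures, fewer cells of a kind and less RNA per cell cannot be told apart.

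**Figure D1:**
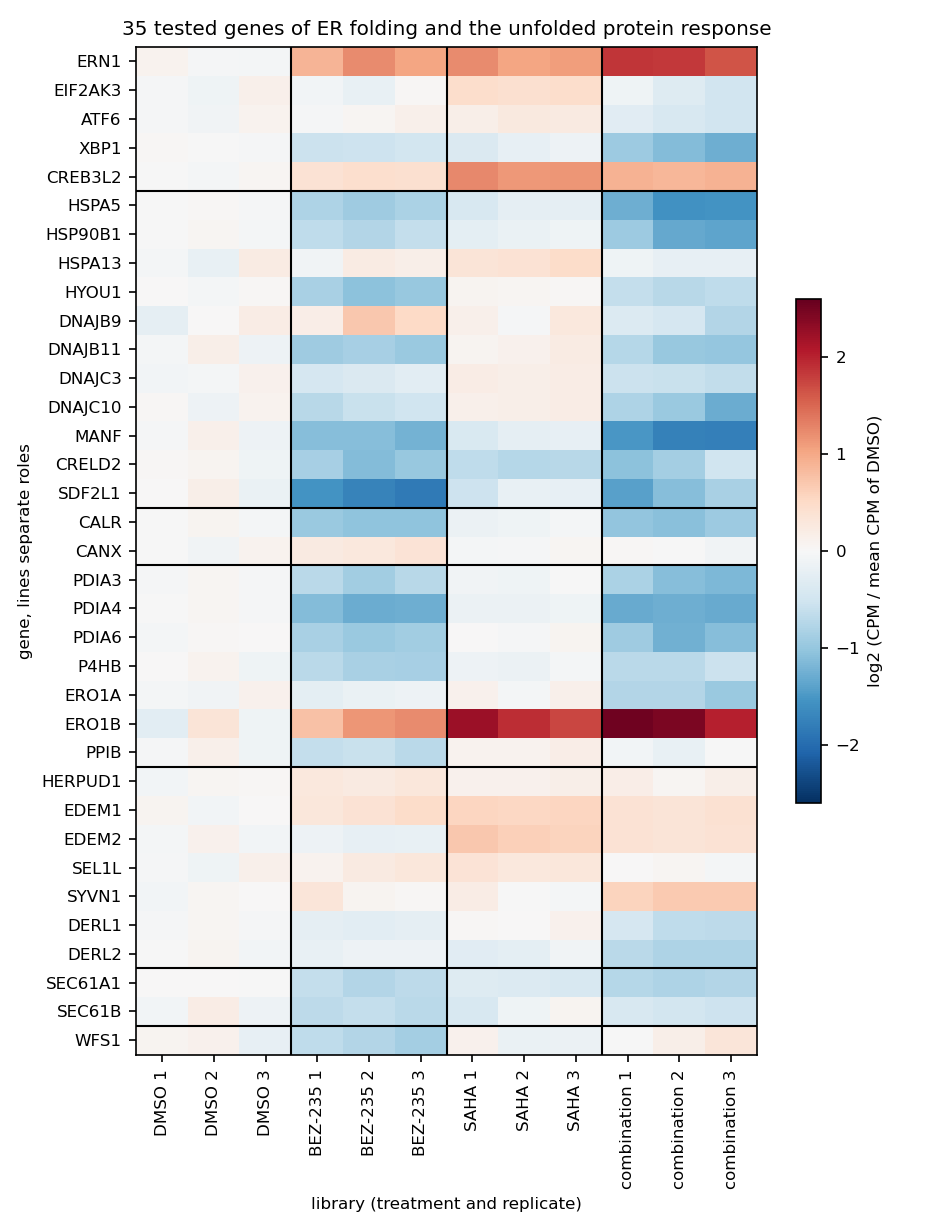
Log2 ratio of each library's CPM to the mean CPM of DMSO (colour) for the 35 tested genes (vertical axis, lines separate roles) in the 12 libraries (horizontal axis). Most chaperones and disulfide isomerases are blue in the BEZ-235 and combination libraries, while ERN1, CREB3L2 and ERO1B are red in all 9 treated libraries.

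BEZ-235 lowered most of the folding machinery and raised the sensor gene ERN1, CREB3L2 and a few chaperone, oxidase and degradation genes. Of the 35 tested genes, 20 were called lower and 8 higher than with DMSO, where 25.4% and 25.5% of all tested genes were called lower and higher. The median change was -0.52 for the list and 0.017 for all tested genes. SAHA moved fewer: 9 genes were called higher and 6 lower, against 22.2% and 20.9% of all tested genes, shares close to those of the list (25.7% and 17.1%). The median change with SAHA was 0.046 for the list and -0.0054 for all tested genes. The 6 genes lower with SAHA became 3 without DMSO replicate 1, 3 without DMSO replicate 2 and 2 without SAHA replicate 1. With the combination 23 genes were called lower and 6 higher, where 31.2% and 33.2% of all tested genes were called, and the median change was -0.59 against 0.034. After GC correction the combination had 21 genes lower and 9 higher; 20 of the lower and 5 of the higher ones were called in the same direction both ways, and 30.9% and 34.5% of all tested genes were called lower and higher. The 3 comparisons share the DMSO libraries.

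**Figure D2:**
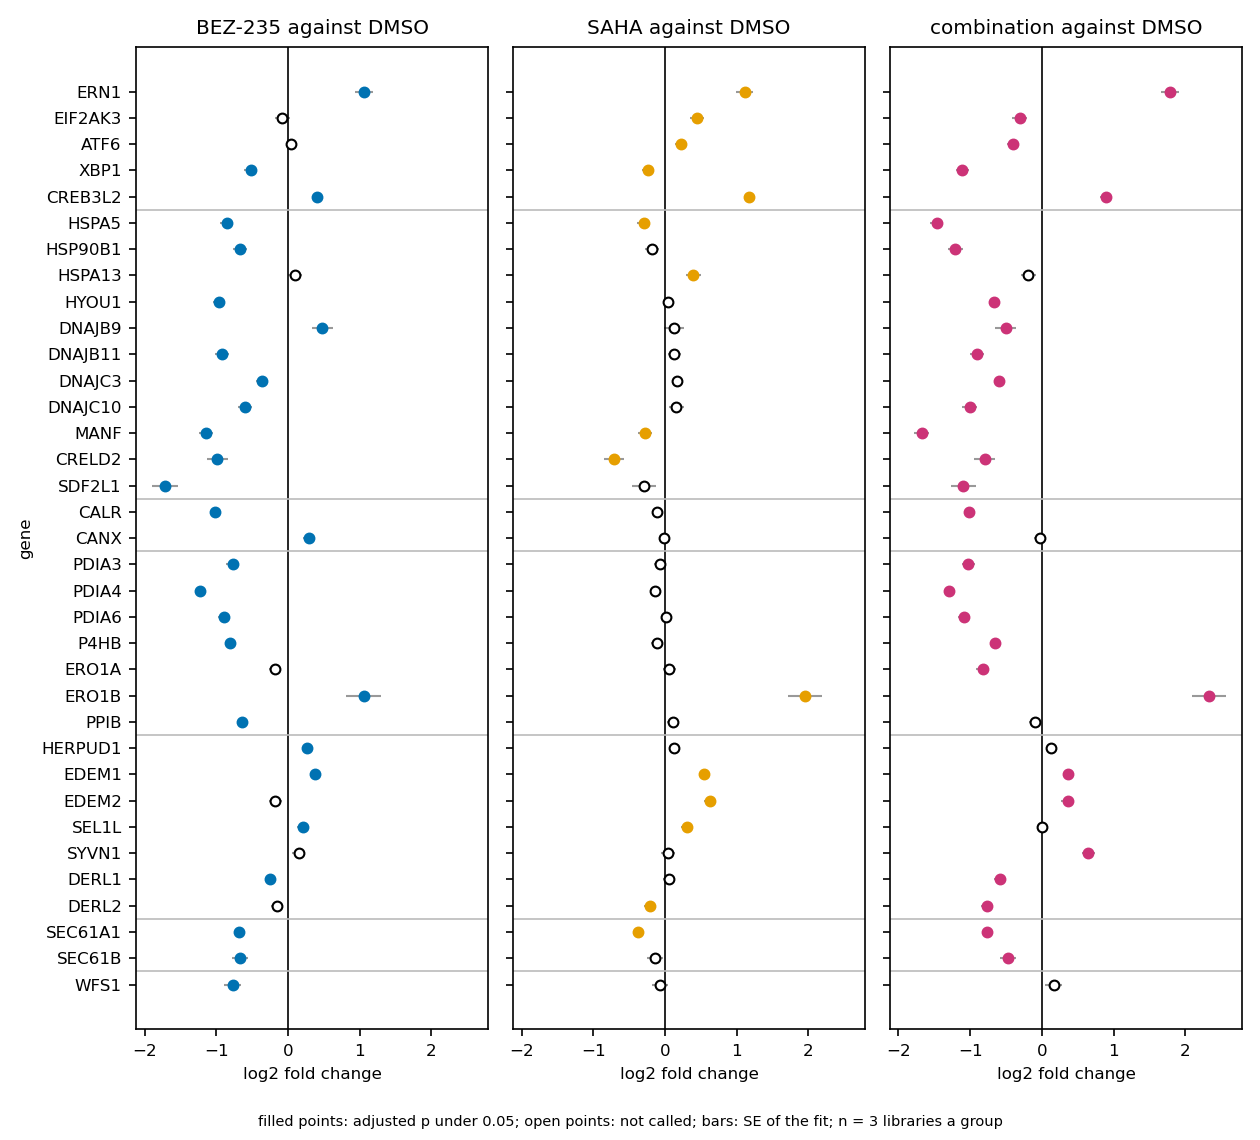
Log2 fold change against DMSO (horizontal axis, 1 panel per treatment) of the 35 tested genes (vertical axis), with bars of 1 SE of the fit. Filled points had an adjusted p under 0.05; with BEZ-235 and with the combination 20 and 23 filled points lie left of 0.

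Markers of other cell types moved with the drugs as well. The 6 fibroblast markers, chiefly LUM, summed to 68.2 to 73.4 CPM with DMSO, 17.8 to 20.6 with BEZ-235, 370.5 to 414 with SAHA and 127 to 154 with the combination. The leukocyte markers stayed at 0.514 to 1.34 CPM in sum over the 12 libraries. The 5 markers of plasma cells and other secretory cells, chiefly SDC1, summed to 23.5 to 25.1 CPM with DMSO, 4.52 to 5.52 with BEZ-235, 24.9 to 27.5 with SAHA and 18.2 to 23.1 with the combination. Their sum was lowest with BEZ-235, where SDC1 alone had a mean of 4.70 CPM. The 5 Schwann cell markers summed to 2.18 to 3.92, 1.03 to 1.55, 7.55 to 9.10 and 6.83 to 8.399 CPM in the same order of groups. Their part in the changes of the 36 genes was not tested.

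Among the sensors and transcription factors, ERN1 and CREB3L2 rose in each treatment and XBP1 fell in each. ERN1 encodes IRE1, the kinase and endonuclease that splices XBP1 (chr17:64039142-64130819, minus strand, GENCODE 29, hg38). ERN1 stood at 5.54, 5.13 and 5.03 CPM with DMSO, 9.70, 12.2 and 10.7 CPM with BEZ-235, 12.3, 10.6 and 11.2 CPM with SAHA and 19.1, 18.8 and 16.3 CPM with both drugs. All 9 treated libraries were above all DMSO libraries, and the combination was above both single drugs. The change was 1.06 ± 0.13 (SE, adjusted p = 3.71e-06) with BEZ-235, 1.11 ± 0.12 (adjusted p = 2.78e-06) with SAHA and 1.79 ± 0.12 (adjusted p = 3.09e-09, 3.45-fold higher) with the combination, where its GC-corrected value was 1.62. CREB3L2 encodes a membrane-bound factor of the ATF6 kind, which is cut to reach the nucleus. CREB3L2 stood at 23.2, 22.5 and 24.1 CPM with DMSO, 30.02, 31.7 and 31.1 CPM with BEZ-235, 55.1, 51.2 and 51.5 CPM with SAHA and 43.8, 42.03 and 43.7 CPM with both drugs. Its 4 groups did not overlap, in the order DMSO, BEZ-235, combination and SAHA. It changed by 0.41 ± 0.08 with BEZ-235 (adjusted p = 2.95e-04), 1.17 ± 0.08 with SAHA (adjusted p = 7.69e-09) and 0.89 ± 0.08 with the combination (adjusted p = 3.34e-08, GC-corrected 0.81).

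XBP1 encodes the transcription factor whose spliced form raises ERAD and folding genes (chr22:28794555-28800597, minus strand). XBP1 stood at 83.9, 81.4 and 79.9 CPM with DMSO, 55.9, 56.3 and 58.9 CPM with BEZ-235, 62.7, 70.8 and 74.8 CPM with SAHA and 42.3, 37.5 and 34.01 CPM with both drugs. Here too the 4 groups did not overlap, and the order was DMSO, SAHA, BEZ-235 and combination from high to low. XBP1 fell by 0.52 ± 0.09 on the log2 scale with BEZ-235 (adjusted p = 1.16e-04) and by 1.11 ± 0.09 with the combination (adjusted p = 1.77e-08, GC-corrected -0.73). With SAHA the change was -0.23 ± 0.09 (adjusted p = 0.0377), a call that was lost when any 1 of 7 libraries was left out (replicate 1, 2 or 3 of DMSO, replicate 2 of BEZ-235, replicate 1 or 2 of SAHA and replicate 2 of the combination; adjusted p = 0.0515 to 0.171). XBP1 also lost this call with no filter on low counts and with the replicate number as a block. EIF2AK3 encodes PERK, the kinase that slows translation. EIF2AK3 stood at 29.4, 27.8 and 32.6 CPM with DMSO, 28.4, 26.05 and 30.4 CPM with BEZ-235, 40.9, 39.98 and 41.3 CPM with SAHA and 27.6, 23.7 and 21.2 CPM with both drugs. The 3 SAHA libraries were above all others, and the BEZ-235 libraries overlapped those of DMSO. EIF2AK3 rose with SAHA by 0.44 ± 0.10 (adjusted p = 0.00173) and was at -0.079 ± 0.10 with BEZ-235 (adjusted p = 0.541). Its change of -0.31 ± 0.10 with the combination (adjusted p = 0.0145) lost its call when replicate 3 of the combination was left out (adjusted p = 0.0693) and after GC correction (-0.16, adjusted p = 0.0743).

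ATF6, the precursor of the ATF6 factor, stood at 240.3, 231 and 262 CPM with DMSO, 238, 252 and 266 CPM with BEZ-235, 274, 291 and 288 CPM with SAHA and 199.5, 183 and 173 CPM with both drugs. The combination libraries were below all others and the SAHA libraries above all others. It changed by 0.22 ± 0.08 with SAHA (adjusted p = 0.0329), a call lost when any 1 of 4 libraries was left out (replicate 1 or 2 of DMSO and replicate 2 or 3 of SAHA; adjusted p = 0.0824 to 0.116) and after GC correction (0.10, adjusted p = 0.107). ATF6 also lost this call with no filter on low counts and with the replicate number as a block. With the combination it changed by -0.40 ± 0.08 (adjusted p = 2.78e-04), and after GC correction by -0.090 (adjusted p = 0.131), so that call does not hold after correction. BEZ-235 alone gave 0.045 ± 0.08 (adjusted p = 0.659).

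**Figure D3:**
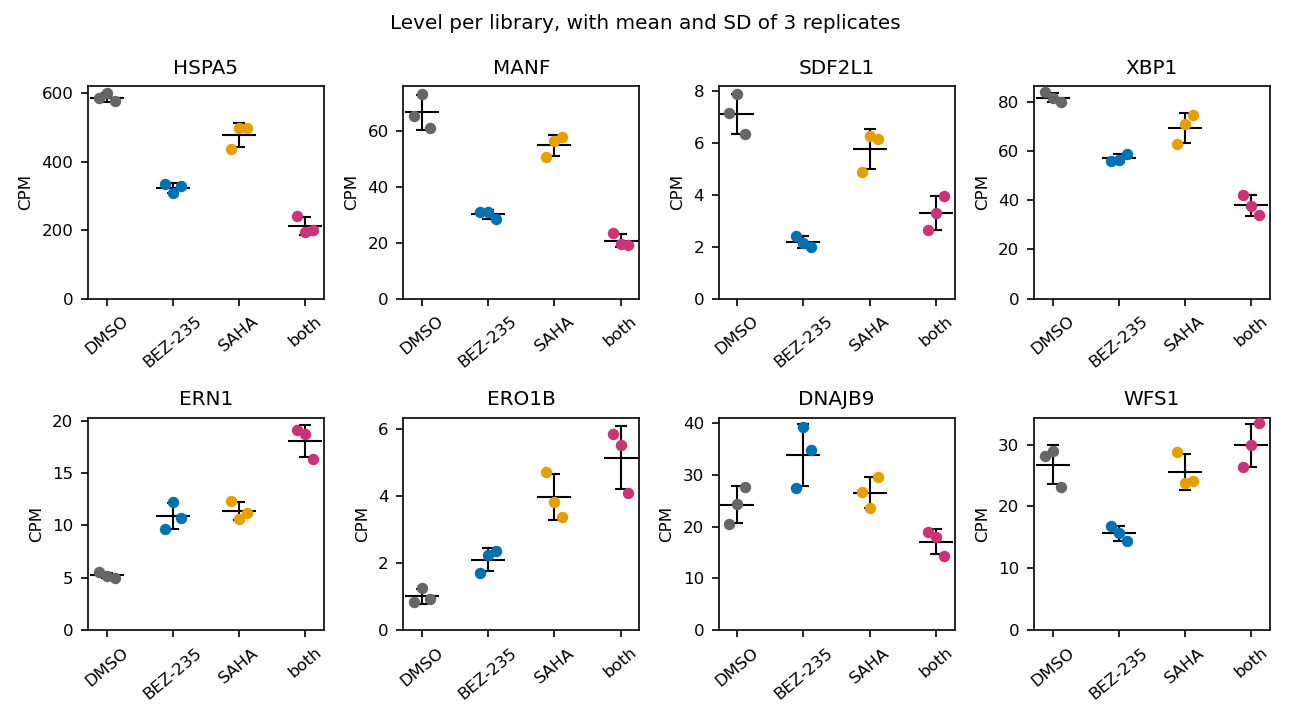
CPM (vertical axes, starting at 0) of 8 genes in the 4 groups (horizontal axes); points are libraries, the dash and bar are the mean and SD of 3 replicates. HSPA5, MANF and XBP1 are lowest with both drugs, ERN1 and ERO1B are highest there, and WFS1 is low with BEZ-235 alone.

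The HSP70 and HSP90 chaperones and their partners were the largest role and had the most genes called lower. Of 11 genes, 9 were lower and 1 higher with BEZ-235, 3 lower and 1 higher with SAHA, and 10 lower and 0 higher with the combination. The lower shares were 81.8% with BEZ-235, 27.3% with SAHA and 90.9% with the combination, against 25.4%, 20.9% and 31.2% of all tested genes. The higher shares were 9.09%, 9.09% and 0%, against 25.5%, 22.2% and 33.2%. By share the 2 translocon genes were above this role, both lower with BEZ-235 and with the combination. HSPA5 encodes BiP, the ER chaperone that also holds the sensors inactive (chr9:125234853-125241330, minus strand). HSPA5 stood at 585, 600.2 and 576 CPM with DMSO, 335, 308 and 330.0 CPM with BEZ-235, 437, 499 and 499 CPM with SAHA and 242, 196 and 199.7 CPM with both drugs. The groups did not overlap and ran from DMSO through SAHA and BEZ-235 to the combination. The change was -0.86 ± 0.09 with BEZ-235 (adjusted p = 6.89e-07, 1.81-fold lower) and -1.46 ± 0.09 with the combination (adjusted p = 6.39e-10, 2.76-fold lower, GC-corrected -1.39). SAHA gave -0.29 ± 0.09 (adjusted p = 0.0121), which was not called when replicate 1 of SAHA was left out (adjusted p = 0.0643). HSP90B1, the chaperone GRP94, stood at 984, 1040.4 and 969 CPM with DMSO, 635, 591 and 652 CPM with BEZ-235, 836, 882 and 929 CPM with SAHA and 516, 394 and 386 CPM with both drugs. Its BEZ-235 libraries were below all DMSO and SAHA libraries, and its combination libraries were lower still. HSP90B1 changed by -0.67 ± 0.10 with BEZ-235 (adjusted p = 3.31e-05) and -1.21 ± 0.10 with the combination (adjusted p = 2.63e-08, GC-corrected -0.81), and was at -0.18 ± 0.10 with SAHA (adjusted p = 0.164).

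MANF encodes a small ER protein that binds BiP and is known as a neurotrophic factor (chr3:51385047-51389397, plus strand). MANF stood at 65.4, 73.4 and 61.2 CPM with DMSO, 31.04, 30.97 and 28.5 CPM with BEZ-235, 50.7, 56.5 and 57.8 CPM with SAHA and 23.5, 19.7 and 19.3 CPM with both drugs. Every group was separate, and the combination was lowest. It changed by -1.15 ± 0.10 with BEZ-235 (adjusted p = 6.24e-08) and -1.68 ± 0.10 with the combination (adjusted p = 4.07e-10, 3.20-fold lower, GC-corrected -1.80), the lowest value of the list against DMSO in that group. Its change of -0.28 ± 0.09 with SAHA (adjusted p = 0.0238) was not called when replicate 1 or 2 of DMSO or replicate 1 of SAHA was left out (adjusted p = 0.0520 to 0.122). SDF2L1 encodes a partner of the co-chaperone DNAJB11 (chr22:21642261-21644298, plus strand), and its transcript has the highest GC content of the list, 65.5%. SDF2L1 stood at 7.16, 7.86 and 6.31 CPM with DMSO, 2.41, 2.14 and 1.98 CPM with BEZ-235, 4.89, 6.26 and 6.15 CPM with SAHA and 2.66, 3.31 and 3.96 CPM with both drugs. The BEZ-235 libraries were below all others and those of the combination lay between them and the rest. Its change of -1.71 ± 0.18 with BEZ-235 (adjusted p = 9.65e-07, 3.27-fold lower) was the lowest of the list. With the combination it was -1.10 ± 0.17 (adjusted p = 3.70e-05), or -1.67 after GC correction, and with SAHA -0.29 ± 0.16 (adjusted p = 0.163).

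CRELD2 encodes an ER protein with disulfide isomerase activity that is secreted under stress. CRELD2 stood at 10.1, 10.4 and 9.12 CPM with DMSO, 5.47, 4.49 and 4.99 CPM with BEZ-235, 6.22, 5.95 and 6.01 CPM with SAHA and 4.73, 5.35 and 6.87 CPM with both drugs. All treated libraries were below all DMSO libraries, and the treated groups overlapped or lay close to each other. It changed by -0.99 ± 0.15 with BEZ-235 (adjusted p = 3.57e-05), -0.71 ± 0.14 with SAHA (adjusted p = 6.92e-04) and -0.80 ± 0.15 with the combination (adjusted p = 1.45e-04, GC-corrected -0.99). This was the lowest called value of the list with SAHA. Of the co-chaperones that stimulate BiP, DNAJB9 (ERdj4), which binds IRE1 and misfolded chains, stood at 20.6, 24.5 and 27.8 CPM with DMSO, 27.4, 39.3 and 34.9 CPM with BEZ-235, 26.6, 23.7 and 29.5 CPM with SAHA and 19.03, 18.04 and 14.3 CPM with both drugs. The combination libraries were below all others, and the BEZ-235 libraries overlapped those of DMSO and SAHA. DNAJB9 was at 0.48 ± 0.14 with BEZ-235 (adjusted p = 0.0111), a call lost when replicate 1 of DMSO or replicate 2 of BEZ-235 was left out (adjusted p = 0.0708 to 0.0836). It was at -0.51 ± 0.15 with the combination (adjusted p = 0.00718), but at -0.060 after GC correction (adjusted p = 0.670).

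The other 5 genes of this role are co-chaperones and relatives of BiP. HYOU1, which exchanges nucleotides on BiP, fell with BEZ-235 (-0.97 ± 0.07) and with the combination (-0.67 ± 0.07, GC-corrected -0.89). DNAJB11, the BiP cofactor ERdj3, fell by nearly the same amount with BEZ-235 (-0.92 ± 0.09) and with the combination (-0.91 ± 0.09), but its GC-corrected value with the combination was -0.32. DNAJC10, a co-chaperone that reduces disulfides before degradation, changed by -0.60 ± 0.10 and -1.01 ± 0.10 (GC-corrected -0.53). DNAJC3, the co-chaperone P58IPK, changed by -0.36 ± 0.08 and -0.59 ± 0.08 (GC-corrected -0.15, adjusted p = 0.0332). The values of HYOU1, DNAJB11, DNAJC10 and DNAJC3 with SAHA were 0.046 to 0.17, and none of the 4 was called. HSPA13, an HSP70 relative of the ER membrane with the lowest GC content of the list (34.9%), rose with SAHA by 0.40 ± 0.10 (adjusted p = 0.00388). With the combination HSPA13 was at -0.19 ± 0.10 (adjusted p = 0.111), and after GC correction it was at 0.55 (adjusted p = 6.72e-07), a change of sign.

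The lectin chaperones went apart with BEZ-235. CALR encodes calreticulin, the soluble lectin of the ER lumen. CALR stood at 442, 465 and 426 CPM with DMSO, 226, 217 and 215 CPM with BEZ-235, 399, 409.7 and 428 CPM with SAHA and 217, 209 and 232 CPM with both drugs. The BEZ-235 and combination libraries overlapped each other and were below all others. It changed by -1.02 ± 0.07 with BEZ-235 (adjusted p = 7.77e-09) and by -1.02 ± 0.07 with the combination (adjusted p = 3.56e-09, GC-corrected -1.19), and was at -0.11 ± 0.07 with SAHA (adjusted p = 0.235). CANX, its membrane-bound relative calnexin, rose by 0.29 ± 0.08 with BEZ-235 (adjusted p = 0.00448) and was at -0.029 ± 0.08 with the combination (adjusted p = 0.753). The GC-corrected value of CANX with the combination was 0.33 (adjusted p = 7.53e-05). Both promoters hold the first form of the ER stress response element.

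Of the 7 disulfide and proline folding enzymes, 5 were called lower with BEZ-235 and 5 with the combination, and ERO1B was called higher in all 3 treatments. The lower share was 71.4% in both, against 25.4% and 31.2% of all tested genes. PDIA4 (ERp72), a disulfide isomerase, stood at 130.4, 136 and 128 CPM with DMSO, 60.3, 53.9 and 54.2 CPM with BEZ-235, 119, 119 and 122 CPM with SAHA and 53.2, 54.3 and 53.4 CPM with both drugs. Its BEZ-235 and combination libraries overlapped, below all DMSO and SAHA libraries. PDIA4 changed by -1.23 ± 0.07 with BEZ-235 (adjusted p = 3.86e-10) and -1.29 ± 0.07 with the combination (adjusted p = 1.08e-10, GC-corrected -1.44), and was at -0.13 ± 0.07 with SAHA (adjusted p = 0.117). Also lower with BEZ-235 were PDIA6 at -0.90 ± 0.08, P4HB, the founding member of the family, at -0.81 ± 0.08 and PDIA3, which works with the lectins, at -0.77 ± 0.09. With the combination they were at -1.09 ± 0.08, -0.65 ± 0.08 and -1.03 ± 0.09 (GC-corrected -0.999, -0.95 and -0.82). None of these 3 was called with SAHA, where they stood at 0.021, -0.11 and -0.069. PPIB, the proline isomerase cyclophilin B, fell with BEZ-235 (-0.63 ± 0.08, adjusted p = 6.91e-06) and was at -0.093 ± 0.08 with the combination (adjusted p = 0.324, GC-corrected -0.30 with adjusted p = 5.09e-04).

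The 2 oxidases that recharge the disulfide isomerases differed in level and in direction. ERO1B, the form known from secretory cells such as pancreatic beta cells (chr1:236215555-236281985, minus strand), was low throughout. ERO1B stood at 0.836, 1.27 and 0.934 CPM with DMSO, 1.72, 2.25 and 2.37 CPM with BEZ-235, 4.73, 3.83 and 3.36 CPM with SAHA and 5.85, 5.52 and 4.10 CPM with both drugs. All 9 treated libraries were above all DMSO libraries, and the SAHA and combination libraries overlapped. It changed by 1.06 ± 0.25 with BEZ-235 (adjusted p = 0.00196), 1.95 ± 0.23 with SAHA (adjusted p = 5.31e-06) and 2.33 ± 0.23 with the combination (adjusted p = 2.30e-07, 5.04-fold higher, GC-corrected 2.94). ERO1A, the widely expressed form, was at -0.18 ± 0.09 with BEZ-235 (adjusted p = 0.0994) and 0.062 ± 0.09 with SAHA (adjusted p = 0.594). With the combination ERO1A changed by -0.83 ± 0.09 (adjusted p = 5.99e-07), which became -0.31 after GC correction (adjusted p = 4.32e-04).

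Degradation genes were called in both directions. Of the 7 tested ERAD genes, 3 were higher and 1 lower with BEZ-235, 3 higher and 1 lower with SAHA, and 3 higher and 2 lower with the combination. The higher share was 42.9% in each, against 25.5%, 22.2% and 33.2% of all tested genes. The lower shares were 14.3%, 14.3% and 28.6%, against 25.4%, 20.9% and 31.2%. EDEM2, a mannosidase that marks misfolded glycoproteins for removal, stood at 14.7, 16.6 and 14.6 CPM with DMSO, 14.04, 13.2 and 13.4 CPM with BEZ-235, 24.7, 23.4 and 22.9 CPM with SAHA and 19.8, 19.3 and 19.9 CPM with both drugs. The SAHA libraries were highest, the combination libraries were next and the BEZ-235 libraries were below all DMSO libraries. EDEM2 rose by 0.63 ± 0.09 with SAHA (adjusted p = 3.00e-05) and was at -0.18 ± 0.09 with BEZ-235 (adjusted p = 0.125). With the combination it was at 0.36 ± 0.09 (adjusted p = 0.00227), not called after GC correction (0.17, adjusted p = 0.0591). EDEM1, a related protein, rose by 0.38 ± 0.07 with BEZ-235, 0.55 ± 0.07 with SAHA and 0.37 ± 0.07 with the combination (adjusted p = 2.08e-04, 8.27e-06 and 1.75e-04, GC-corrected 0.44 in the last). SYVN1, the ubiquitin ligase HRD1, stood at 34.6, 37.4 and 36.6 CPM with DMSO, 45.2, 38.3 and 37.2 CPM with BEZ-235, 41.7, 35.9 and 34.9 CPM with SAHA and 54.3, 58.1 and 57.6 CPM with both drugs. Its combination libraries were above all others and the other groups overlapped. It changed by 0.65 ± 0.09 with the combination (adjusted p = 1.28e-05, GC-corrected 0.38), and was at 0.15 ± 0.09 and 0.044 ± 0.09 with BEZ-235 and SAHA (adjusted p = 0.194 and 0.731).

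SEL1L, the partner of HRD1 in the same ligase complex, was at 0.21 ± 0.08 with BEZ-235 (adjusted p = 0.0343), a call lost when any 1 of 8 libraries was left out (replicate 1 or 2 of DMSO, replicate 2 or 3 of BEZ-235, replicate 1 or 2 of SAHA and replicate 2 or 3 of the combination; adjusted p = 0.050029 to 0.190). SEL1L also lost this call with no filter on low counts and with the replicate number as a block. It rose with SAHA by 0.31 ± 0.08 (adjusted p = 0.00470), and stood at 0.0041 ± 0.08 with the combination (adjusted p = 0.968, GC-corrected 0.44 with adjusted p = 1.96e-06). HERPUD1, a scaffold of the complex whose promoter holds both an ER stress response element and the ATF4 core, rose with BEZ-235 by 0.27 ± 0.07 (adjusted p = 0.00480); this call was lost when no filter on low counts was used (adjusted p = 0.0694). With SAHA and the combination HERPUD1 was at 0.12 ± 0.07 and 0.13 ± 0.07 (adjusted p = 0.166 and 0.117, GC-corrected 0.13 in the last, where adjusted p = 0.0449 makes it a call). Of the Derlin channel proteins, DERL1 changed by -0.25 ± 0.08 with BEZ-235 (adjusted p = 0.0133) and -0.59 ± 0.08 with the combination (adjusted p = 5.10e-06, GC-corrected -0.37). DERL2 was at -0.15 ± 0.08 with BEZ-235 (adjusted p = 0.137) and -0.77 ± 0.08 with the combination (adjusted p = 5.12e-07, GC-corrected -0.27). Its value of -0.21 ± 0.08 with SAHA (adjusted p = 0.0450) lost its call when any 1 of 7 libraries was left out (replicate 1 or 2 of DMSO, replicate 2 or 3 of BEZ-235, replicate 1 or 2 of SAHA and replicate 2 of the combination; adjusted p = 0.0559 to 0.153). DERL2 also lost this call with no filter or a stricter filter on low counts and with the replicate number as a block.

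Both translocon genes fell with BEZ-235. SEC61A1, the pore of the channel through which new chains enter the ER, stood at 249, 251 and 246 CPM with DMSO, 162, 147 and 155 CPM with BEZ-235, 196, 194 and 187 CPM with SAHA and 148, 142 and 147 CPM with both drugs. Its SAHA libraries lay between those of DMSO and those with BEZ-235, and the BEZ-235 and combination libraries overlapped. SEC61A1 changed by -0.69 ± 0.07 with BEZ-235 (adjusted p = 3.01e-07), -0.37 ± 0.07 with SAHA (adjusted p = 2.42e-04) and -0.77 ± 0.07 with the combination (adjusted p = 3.55e-08, GC-corrected -0.94). SEC61B, a small subunit, changed by -0.67 ± 0.11 and -0.48 ± 0.11 with BEZ-235 and the combination (adjusted p = 1.22e-04 and 0.00141, GC-corrected -0.64 in the last) and was at -0.14 ± 0.11 with SAHA (adjusted p = 0.336). WFS1 encodes wolframin, an ER membrane protein whose loss causes diabetes and nerve degeneration. WFS1 stood at 28.2, 28.99 and 23.1 CPM with DMSO, 16.9, 15.7 and 14.4 CPM with BEZ-235, 28.9, 23.8 and 24.1 CPM with SAHA and 26.4, 29.8 and 33.4 CPM with both drugs. The BEZ-235 libraries were below all others, which overlapped each other. It changed by -0.77 ± 0.12 with BEZ-235 (adjusted p = 5.55e-05), and was at -0.071 ± 0.12 with SAHA and 0.16 ± 0.12 with the combination (adjusted p = 0.653 and 0.232, GC-corrected -0.17 in the last).

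The combination was also set against each single drug. Against SAHA, 28 genes were lower and 2 higher, where 28.9% and 29.9% of all tested genes were called, and the median was -0.62. After GC correction 24 were lower and 5 higher, against 23.9% and 28.4% of all tested genes. Of the lower ones 23 were called both ways, and SEL1L was called in opposite directions (-0.30 ± 0.08, adjusted p = 0.00350, and 0.23 after GC correction, adjusted p = 0.00141). The largest falls against SAHA without the correction were those of MANF (-1.40 ± 0.10, GC-corrected -1.50) and HSPA5 (-1.17 ± 0.09, GC-corrected -1.05). With the correction SDF2L1 (-1.69) was below MANF, and PDIA4 (-1.28) and CALR (-1.07) were below HSPA5. ERN1 and SYVN1 were the 2 genes called higher (0.68 ± 0.11 and 0.60 ± 0.09, GC-corrected 0.63 and 0.32). Calls of 3 genes lower than with SAHA rested on single libraries. EDEM1 was not called when replicate 2 or 3 of SAHA or replicate 2 of the combination was left out (adjusted p = 0.0506 to 0.0646). PPIB was not called when replicate 2 or 3 of SAHA or replicate 2 of the combination was left out (adjusted p = 0.0643 to 0.109), nor SEC61B when replicate 3 of SAHA was left out (adjusted p = 0.0981). EDEM1 and PPIB were also not called with the replicate number as a block, and EDEM1 not after GC correction (-0.012, adjusted p = 0.863).

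Against BEZ-235, 16 genes were lower and 9 higher with the combination, where 28.5% and 29.5% of all tested genes were called. After GC correction 9 were lower and 11 higher, where 27.1% and 28.8% of all tested genes were called, so both counts are near the background. Only 5 and 7 were called in the same direction both ways, while 3 were called in opposite directions (DNAJC3, HSPA13 and SEL1L). The 5 genes lower both ways were DNAJB9 (-0.99 ± 0.15, GC-corrected -0.58), HSPA5 (-0.61 ± 0.09, -0.51), XBP1 (-0.59 ± 0.09, -0.25), MANF (-0.53 ± 0.10, -0.63) and HSP90B1 (-0.53 ± 0.10, -0.18, adjusted p = 0.049987). The 7 genes higher both ways were ERO1B (1.28 ± 0.22, 1.89), WFS1 (0.93 ± 0.12, 0.50), ERN1 (0.73 ± 0.12, 0.63), PPIB (0.54 ± 0.08, 0.36), EDEM2 (0.54 ± 0.09, 0.31), SYVN1 (0.50 ± 0.09, 0.20) and CREB3L2 (0.48 ± 0.07, 0.48). HSPA5, HSP90B1, MANF and XBP1 were thus called lower than with either DMSO or BEZ-235, before and after correction. ERN1, ERO1B, SYVN1 and CREB3L2 were called higher in the same way. For HSP90B1 the call against BEZ-235 was lost when the replicate block was added to the correction (adjusted p = 0.0604).

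**Figure D4:**
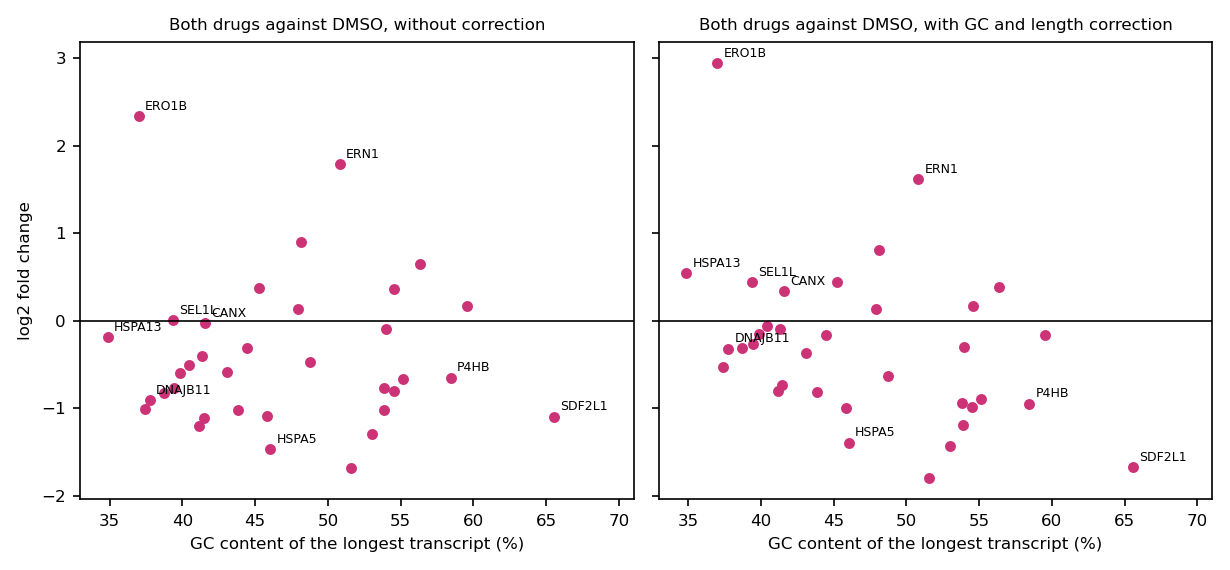
Log2 fold change of the combination against DMSO (vertical axes) by GC content of the longest transcript in percent (horizontal axes) for the 35 tested genes, without (left) and with (right) correction for GC content and length. HSPA13, at the lowest GC content, moves from -0.19 to 0.55 and SDF2L1, at the highest, from -1.10 to -1.67, while HSPA5 stays near -1.4.

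The design also allows a test of whether SAHA acted differently in the presence of BEZ-235, as the change from BEZ-235 to the combination minus the change from DMSO to SAHA. Of the 35 genes, 15 had a lower and 6 a higher difference, where 19.6% and 18.9% of all tested genes were called, and the median was -0.31 for the list. After GC correction 5 and 3 were called, where 8.53% and 10.4% of all tested genes were, so the count of higher differences is near the background. The 4 genes called lower both ways were DNAJB9 (-1.11 ± 0.21, GC-corrected -0.67), CREB3L2 (-0.69 ± 0.11, -0.57), EIF2AK3 (-0.67 ± 0.14, -0.43) and EDEM1 (-0.56 ± 0.10, -0.33). For EIF2AK3 this difference set a rise of 0.44 ± 0.10 with SAHA alone (GC-corrected 0.38) beside -0.23 ± 0.10 when SAHA was added to BEZ-235. That value of -0.23 was not called, and after GC correction it was -0.051 (adjusted p = 0.592). WFS1 (1.004 ± 0.17, 0.46) and CRELD2 (0.89 ± 0.21, 0.67) were called higher both ways. WFS1 was at -0.071 ± 0.12 with SAHA alone and at 0.93 ± 0.12 with SAHA on top of BEZ-235.

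Genes that work beside these 36 were taken from 8 further lists with 126 genes, of which 122 were tested. With BEZ-235 22 of them were called higher and 59 lower (median -0.21), with SAHA 22 and 25 (median -0.038), and with the combination 23 and 75 (median -0.42). The lower shares were 48.4%, 20.5% and 61.5%, against 25.4%, 20.9% and 31.2% of all tested genes. The higher shares were 18.03%, 18.03% and 18.9%, against 25.5%, 22.2% and 33.2%. The lower share with SAHA was thus near the background and the higher share below it. These values are not corrected for GC content. Genes of the PERK and ATF4 branch were called in both directions. Of its 15 genes, 6 were called higher and 5 lower with BEZ-235, and 1 higher and 3 lower with SAHA. With the combination 6 were called higher and 6 lower. With BEZ-235 and with the combination both shares were above the background, but each rests on 5 or 6 genes. With SAHA the higher share was 6.67%, below the background, and the lower share was near it. NUPR1, a stress-induced nuclear protein, had the highest called value with BEZ-235 (3.54 ± 0.44), and DDIT4, an inhibitor of mTOR complex signalling, the lowest (-2.17 ± 0.12). ATF3 (0.76 ± 0.12) and DDIT4 (-0.68 ± 0.11) were the extremes with SAHA, and CEBPB (2.33 ± 0.14) and DDIT4 (-1.97 ± 0.12) with the combination. ATF4 itself was at 1.90 ± 0.09, -0.10 ± 0.09 and 1.96 ± 0.09 in the 3 treatments, and DDIT3 (CHOP), a transcription factor of prolonged stress, at 1.72 ± 0.11, 0.11 ± 0.11 and 2.11 ± 0.11; both were picked for their place in the pathway after their values were known. ATF4 and DDIT3 were thus higher in the 2 groups in which HSPA5, HSP90B1 and MANF were lowest.

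Most genes of N-glycosylation and of translocation were also called lower with BEZ-235 and with the combination. Of all tested genes, 25.4%, 20.9% and 31.2% were called lower with BEZ-235, SAHA and the combination, and 25.5%, 22.2% and 33.2% higher. With BEZ-235 and the combination, each list in this paragraph had a lower share above this background and a higher share below it. With SAHA the translocation shares were 11.1% each way, below the background, and those of the other isomerases were near it. Of 16 genes of N-glycosylation, 1 was called higher and 12 lower with BEZ-235, with OSTC at 0.41 ± 0.13 and RPN2, a subunit of the oligosaccharyltransferase, at -0.99 ± 0.07 as extremes. With the combination the count was 2 higher and 12 lower, from PRKCSH at 0.79 ± 0.09 to STT3B, a catalytic subunit of that enzyme, at -1.11 ± 0.10; with SAHA it was 5 higher and 2 lower, from DAD1 at 0.36 ± 0.10 to MAN1B1 at -0.52 ± 0.08. Signal peptide handling and translocation (18 genes) had 2 higher and 10 lower with BEZ-235 (SEC11A 0.48 ± 0.10, SEC61G -0.63 ± 0.14), 2 higher and 2 lower with SAHA (SEC11C 0.57 ± 0.09, SRP68 -0.37 ± 0.07) and 3 higher and 14 lower with the combination (SEC11A 0.50 ± 0.10, SSR3 -1.20 ± 0.10). Of 20 other disulfide and proline isomerases, 1 was called higher and 12 lower with BEZ-235 (ERP29 0.58 ± 0.09, PDIA5 -0.98 ± 0.18), 4 higher and 5 lower with SAHA (TMX4 0.63 ± 0.08, PDIA2 -2.05 ± 0.30) and 2 higher and 14 lower with the combination (ERP29 0.68 ± 0.09, TXNDC5 -1.42 ± 0.11).

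The 18 other degradation factors had 5 higher and 4 lower with BEZ-235 (HERPUD2 0.47 ± 0.09, VCP, the ATPase that pulls chains out of the ER, -0.86 ± 0.08). They had 3 higher and 3 lower with SAHA (lowest UBE2G2 at -0.37 ± 0.08) and 4 higher and 11 lower with the combination (lowest RNF139 at -0.77 ± 0.12). With BEZ-235 27.8% were higher and 22.2% lower, near the 25.5% and 25.4% of all tested genes. With SAHA both shares were 16.7%, against 22.2% and 20.9%. With the combination they were 22.2% and 61.1%, against 33.2% and 31.2%. Of 10 tested lumenal chaperones and cofactors, 1 was called higher and 4 lower with BEZ-235 (CDNF 0.82 ± 0.28, SIL1 -0.85 ± 0.13), 3 higher and 1 lower with SAHA (DNAJC1 0.88 ± 0.11, CRELD1 -0.50 ± 0.07) and 2 higher and 4 lower with the combination (DNAJC1 0.73 ± 0.11, SERP1 -0.70 ± 0.13). CDNF is the close relative of MANF. Transport out of and back to the ER (16 genes) had 4 higher and 8 lower with BEZ-235, 4 higher and 5 lower with SAHA and 3 higher and 9 lower with the combination. The receptors that return escaped chaperones to the ER went apart: KDELR3 was the lowest called gene with BEZ-235 (-2.62 ± 0.27) and the highest with SAHA (1.73 ± 0.19), and KDELR1 (0.82 ± 0.08) and KDELR2 (-0.91 ± 0.07) were the extremes with the combination. SEC24B (0.52 ± 0.10) was highest with BEZ-235 and SEC24C (-0.38 ± 0.08) lowest with SAHA; both sort cargo into vesicles. The list of relatives of ATF6, their proteases, the NF-Y subunits and ERN2 (IRE1 beta, a paralogue of ERN1 and not an ATF6 relative) held 9 tested genes, with 2 higher and 4 lower with BEZ-235 (CREB3L4 0.55 ± 0.08, ERN2 -1.05 ± 0.14), 0 higher and 4 lower with SAHA (CREB3L4 -0.79 ± 0.08) and 1 higher and 5 lower with the combination (CREB3 0.37 ± 0.11, ERN2 -1.33 ± 0.14). The higher shares were 22.2%, 0% and 11.1%, against 25.5%, 22.2% and 33.2% of all tested genes. The lower shares were 44.4%, 44.4% and 55.6%, against 25.4%, 20.9% and 31.2%.

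**Figure D5:**
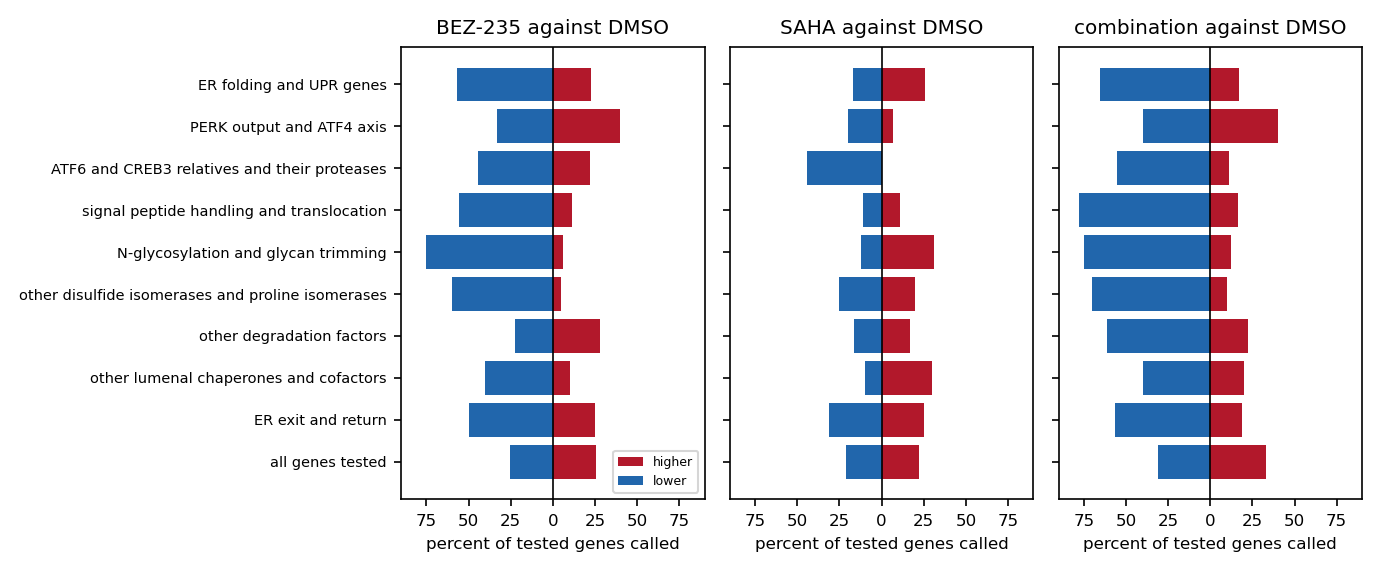
Share of tested genes called higher (red, to the right) and lower (blue, to the left) in percent (horizontal axes) for the 35 ER folding and unfolded protein response genes, the 8 further lists and all tested genes (vertical axis), against DMSO. With the combination the blue bars of all 8 further lists reach past that of all tested genes. With BEZ-235 all of them do except that of the other degradation factors.

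The promoter matches named above can be set beside the changes. With BEZ-235, the 11 genes with either form of the ER stress response element had 3 calls higher (CANX, ERO1B and HERPUD1) and 8 lower, with a median of -0.86. The 22 tested genes with a window but no element had 5 higher and 10 lower, with a median of -0.18. Of all tested genes 25.5% were called higher and 25.4% lower with BEZ-235. With the combination the medians, not corrected for GC content, were -1.02 and -0.44, and with SAHA -0.11 and 0.13. Genes with the element ranged from -1.46 (HSPA5) to 2.33 (ERO1B) with the combination, and MANF, the lowest gene there, had no match in its window. These are descriptions of few genes, with no test of the difference.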

How the data were processed

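RNA of NB-1 cells was measured as stranded libraries of polyadenylated RNA in 12 samples, 3 for each of 4 treatments, grouped by the treatment in the labels. The deposited table holds estimated counts per gene (expected counts), which the authors made with STAR and RSEM on hg38, per the submitters' processing notes, with versions and annotation not given in the sources used here. Expected counts were rounded to whole numbers. Gene identifiers were matched to GENCODE 29 for names, coordinates, length and GC content (57447 of 58051 matched).

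Genes with enough reads (filterByExpr, 17774) were scaled by TMM (factors 0.981 to 1.03) and tested in 1 fit of all 12 libraries with edgeR 4.0.16 (quasi-likelihood, robust, two-sided, 8 residual degrees of freedom) in R 4.3.3, with Benjamini-Hochberg adjustment over all tested genes. The biological coefficient of variation was 10.6%. The p-values measure the spread between 3 biological replicates of 1 line. The alternatives replaced TMM by relative log expression factors, edgeR by DESeq2 1.42.0, or the filter by none or by a mean CPM of at least 1, and added the replicate block, splines of GC content and length (5 degrees of freedom each) as offsets per library, both together, and each library left out. The scripts were tested on simulated data.

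Per-library values are given for the 5 sensors and factors, HSPA5, and the 4 highest and 4 lowest changes against DMSO in each treatment, with WFS1 added after its values were seen. In the further lists, the highest and lowest called genes are named, except 1 gene that is not reported here. The members and lists were chosen with earlier results of these data known. Promoters come from RefSeq (GRCh38.p14); the planned protein features were not analysed here.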

Additional observations from a re-analysis of the deposited data

Results flagged for a closer look

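The change with SAHA differed between cells with and without BEZ-235 in 21 of the 35 tested genes by the interaction test of edgeR. The lower share was 42.9% and the higher share 17.1%, against 19.6% and 18.9% of all tested genes, so the higher share is near the background. The difference is given on the log2 scale, and a negative value means that SAHA lowered the gene more, or raised it less, on top of BEZ-235. Lower values were found for DNAJB9 -1.11, ERO1A -0.71, CREB3L2 -0.69, HSPA13 -0.68, ATF6 -0.67, EIF2AK3 -0.67, EDEM1 -0.56, DNAJC10 -0.56, SEL1L -0.51, DERL2 -0.41, DNAJC3 -0.41, DERL1 -0.40, XBP1 -0.36, CANX -0.31 and HERPUD1 -0.26. Higher values were found for WFS1 1.004, SDF2L1 0.90, CRELD2 0.89, SYVN1 0.45, PPIB 0.43 and SEC61A1 0.29. After the correction for GC content and length, 5 genes were called lower and 3 higher, where 8.53% and 10.4% of all tested genes were. Of the 21 genes, DNAJB9 (-0.67), CREB3L2 (-0.57), EIF2AK3 (-0.43), EDEM1 (-0.33), WFS1 (0.46) and CRELD2 (0.67) were still called in the same direction. The sign turned for CANX, DERL2, DNAJC10, DNAJC3, SDF2L1, SEL1L and XBP1.

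Some of these calls rest on single libraries. CANX was not called when any 1 of 7 libraries was left out (replicate 1 or 2 of DMSO, replicate 2 or 3 of BEZ-235, replicate 2 or 3 of SAHA and replicate 3 of the combination; adjusted p = 0.0535 to 0.0861). HERPUD1 was not called when any 1 of 8 libraries was left out (replicate 1 of DMSO, replicate 1, 2 or 3 of BEZ-235, replicate 2 or 3 of SAHA and replicate 2 or 3 of the combination; adjusted p = 0.0521 to 0.108). SEC61A1 was not called when any 1 of 4 libraries was left out (replicate 1 of DMSO, replicate 2 or 3 of BEZ-235 and replicate 3 of SAHA; adjusted p = 0.0567 to 0.0789). XBP1 was not called when any 1 of 7 libraries was left out (replicate 3 of DMSO, replicate 2 or 3 of BEZ-235, replicate 2 or 3 of SAHA and replicate 2 or 3 of the combination; adjusted p = 0.0509 to 0.0869). CANX, HERPUD1 and XBP1 were also not called with the replicate number as a block. CANX, HERPUD1 and SEC61A1 were not called with no filter on low counts, and HERPUD1 not with relative log expression scaling. With 3 libraries in a group, no search for outlying samples was made.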

How the results depend on the processing

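Each comparison was recomputed under 19 alternatives: another scaling, DESeq2, no filter and a stricter filter on low counts, the replicate number as a block, a correction for GC content and length with and without that block, and each library left out. With BEZ-235 against DMSO and the combination against DMSO, the counts of genes called lower and higher stayed within 1.5 times their values under all 19. Leaving out 1 library gave 20 lower and 6 to 8 higher with BEZ-235, 2 to 6 lower and 8 to 10 higher with SAHA (2 without SAHA replicate 1, 3 without DMSO replicate 1 or 2), and 22 to 24 lower and 6 higher with the combination. The combination against BEZ-235 had 11 to 17 lower and 8 to 9 higher, the combination against SAHA 25 to 28 and 2 to 3, and the interaction 12 to 20 and 5 to 8. For SAHA the count of lower genes was 4 with no filter and 4 with the replicate block. The largest shifts came with the GC and length correction. The 16 genes lower than with BEZ-235 became 9 (8 with the block added), the 2 higher than with SAHA became 5 (5 with the block added), the 6 higher in the interaction became 3 (3) and the 15 lower became 5 (4). That correction also turned the sign of single genes, with these log2 values after it. Against DMSO the combination gave CANX 0.33 and HSPA13 0.55; against BEZ-235 it gave CANX 0.032, DNAJC10 0.17, DNAJC3 0.21, HSPA13 0.45, P4HB -0.24, SDF2L1 -0.10 (-0.11 with the replicate block) and SEL1L 0.25; against SAHA it gave CANX 0.39, HSPA13 0.087 (0.086 with the replicate block), SEL1L 0.23 and WFS1 -0.21; and the interaction gave CANX 0.088 (0.087 with the replicate block), DERL2 0.094, DNAJB11 0.46 (0.45 with the replicate block), DNAJC10 0.19 (0.18 with the replicate block), DNAJC3 0.097, SDF2L1 -0.12, SEL1L 0.049 (0.048 with the replicate block) and XBP1 0.036 (0.034 with the replicate block). The cause was not tested.

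Replicate numbers did not pair the samples: libraries with the same number had correlated deviations of -0.164 to 0.128, against -0.145 to 0.160 for different numbers, and 1 of 12 libraries correlated best with its own number. With the replicate block, BEZ-235 gave 7 higher and 20 lower, SAHA 8 and 4, and the combination 6 and 23. ERO1B and SDF2L1, at means of 1.01 and 7.11 CPM with DMSO, had the largest SEs against DMSO. With BEZ-235, ERN1 (5.23 CPM with DMSO) had a smaller SE than DNAJB9 (24.3 CPM with DMSO), at 0.127 and 0.144. The part of depth in these SEs was not tested.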
